A study of Homo sapiens with 6 samples.

Results

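The RUNX transcription factors RUNX1, RUNX2 and RUNX3, their cofactor CBFB, and the ETO corepressors RUNX1T1, CBFA2T2 and CBFA2T3 were followed in Kasumi-1 cells, a human acute myeloid leukaemia line. In this line a t(8;21) translocation has fused RUNX1 to RUNX1T1. These 7 genes were chosen by name, as the partners of the fusion, their paralogues and the RUNX cofactor. All 7 were found among the 27576 genes measured, and all 7 passed the filter on low values, which asked for 1 or more in 3 or more libraries. The cells were cultured in RPMI1640 with 20% fetal bovine serum. One group received 10 ng/ml recombinant human IL-10, an anti-inflammatory cytokine, and the control group 0.5% bovine serum albumin, each for 72 h. Each group had 3 libraries, and every library came from this 1 line, so each of them carries the fusion. Values are normalised read counts, that is, recovered reads divided by 1 size factor per library.

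RUNX proteins bind DNA through their Runt domain, and CBFB, which does not bind DNA itself, strengthens that binding and stabilises the RUNX protein. RUNX1 is required for blood stem cells to form. ETO proteins do not recognise DNA sequences on their own and instead bring corepressors and histone deacetylases to factors that do. The t(8;21) fusion joins the start of RUNX1, with its Runt domain, to nearly all of RUNX1T1, so that RUNX binding sites receive an ETO corepressor. A count per gene cannot separate the fusion transcript from the normal ones: its first exons are counted as RUNX1 and its later ones as RUNX1T1. RUNX1T1 itself is little expressed in normal blood cells.

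The libraries held 20750115 to 23077693 recovered reads with IL-10 and 22429270 to 24222897 in control, and 259 to 12723 reads for any of the 7 genes. Of 8 progenitor markers, CD34 stood at 11577 to 14919 with IL-10 and 11415 to 13483 in control, and KIT at 29296 to 53136 and 38003 to 54533. Others of the list were low: CD38 stood at 27.0 to 38.0 with IL-10 and 33.8 to 35.4 in control, and ELANE at 4.70 to 159 and 8.95 to 139.7. Of 7 monocyte markers, CD14, FCGR3A, S100A8 and FCN1 were below 5 in every library. CSF1R stood at 145 to 206 with IL-10 and 117 to 184 in control, LYZ at 35.3 to 90.5 and 22.2 to 98.4, and S100A9 at 0 to 5.34 and 1.78 to 10.2. IL-10 replicate 2 stood apart: it lay at 59.0 on a first principal component that held 75.4% of the variance, against -23.6 to 11.5 for the other 5 libraries. Results for the 7 genes that rest on that library are given with and without it.

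None of the 7 genes was called different between IL-10 and control. In limma 0 of the 7 passed an adjusted p under 0.05, as did 0% of all 21946 genes tested (percent called 0). At an unadjusted p under 0.05 there were 0 of 7, against 1.57% of all genes (344), and 257 genes by edgeR and 94 by DESeq2. The ranges of the groups overlapped for all 7 genes, while 5.87% of all genes had groups that did not overlap. The adjusted p was 0.982 for 6 of them and 0.992 for CBFB. The members' median log2 fold change was 0.07 and that of all genes 0.02, with 4 members positive and 3 negative.

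**Figure D1:**
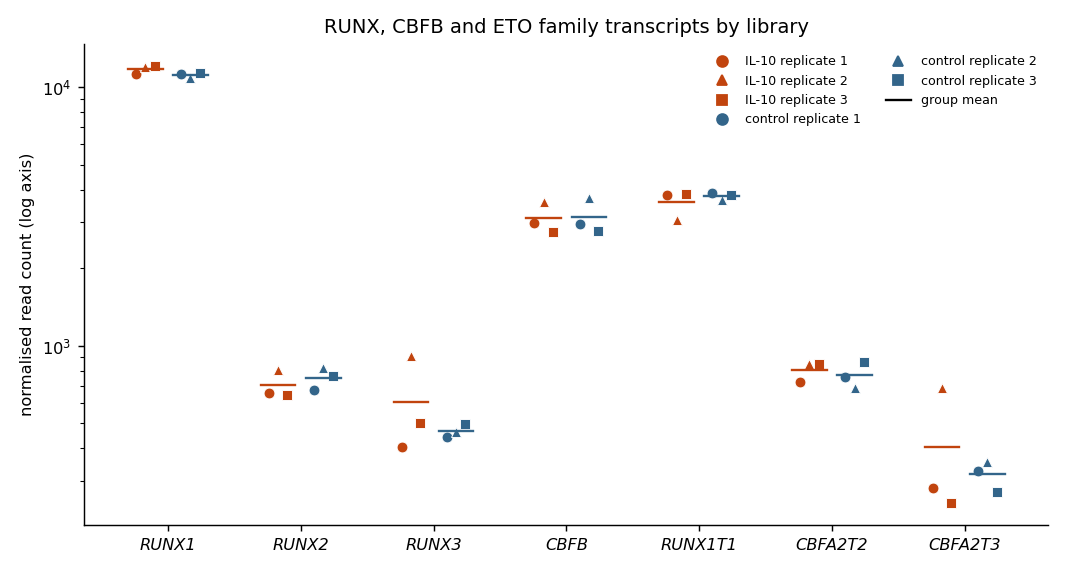
Normalised read count (log axis) of the 7 genes in each library. Points are libraries, with a marker per replicate number, and bars are group means (n = 3). RUNX1 lay between 10833 and 12084 in all libraries, and IL-10 replicate 2 was high for RUNX3 (913) and CBFA2T3 (688) and low for RUNX1T1 (3071).

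RUNX1 (ENSG00000159216, GRCh38 chromosome 21, 34787801 to 36004667) stood at 11219, 11976 and 12084 in IL-10 replicates 1 to 3, against 11234.5, 10833 and 11299 in control replicates 1 to 3. IL-10 replicates 2 and 3 lay above all 3 control libraries, while IL-10 replicate 1 lay within the control range. The means were 11760 ± 471 and 11122 ± 252 (SD, n = 3 each), a log2 fold change of 0.08 (SE 0.15, 95% interval -0.25 to 0.41). The residual spread was the smallest of the 7 genes, at an SD of 0.05 on the log2 scale, where counting alone gives 0.01. The interval is wider than that spread alone gives, because limma draws each gene's variance toward a trend over all genes. The interval allows a fold of 0.839 to 1.33. With equal library totals or quantile normalization the sign turned, to -0.02 and -0.05.

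RUNX2 (ENSG00000124813, chromosome 6, 45328157 to 45664349), the regulator of bone formation, stood at 656, 807 and 642 in IL-10 replicates 1 to 3, against 675, 818 and 762 in control replicates 1 to 3. The replicate 2 libraries were the highest of both groups, and each IL-10 library was below its control of the same number. The log2 ratios in pairs 1, 2 and 3 were -0.04, -0.02 and -0.25. The log2 fold change was -0.10 (95% interval -0.49 to 0.29, adjusted p = 0.982 in limma). It was -0.21 without IL-10 replicate 2, -0.06 without IL-10 replicate 1, -0.04 without IL-10 replicate 3, -0.18 without control replicate 1 and -0.04 without control replicate 2. In replicates 1 and 3 alone, with the replicate as a block, RUNX2 had -0.14 (95% interval -0.29 to -0.0024, unadjusted p = 0.0462, adjusted p = 0.999 in limma). In that fit it was 1 of 7 members at an unadjusted p under 0.05, against 4.23% of all genes (860 of 20308), and 0 of 7 passed the adjusted threshold, against 0.0542% of all genes (11).

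RUNX3 (ENSG00000020633, chromosome 1, 24899511 to 24965121), which acts in T cell development, stood at 405, 913 and 501 in IL-10 replicates 1 to 3, against 443, 463 and 498 in control replicates 1 to 3. IL-10 replicate 2 was the highest library by far, and the remaining 5 ranged from 405 to 501. The means were 606 ± 270.1 and 468 ± 28.1 (SD, n = 3 each). The log2 fold change in limma, a difference of mean log2 values, was 0.29 (SE 0.28, 95% interval -0.35 to 0.92). On recovered reads it was 0.36 in edgeR and 0.37 in DESeq2. Without IL-10 replicate 2 the limma value was -0.05.

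The promoters of RUNX2 and RUNX3 are shown because RUNX genes are themselves known targets of RUNX proteins. RefSeq (GRCh38.p14) lists 2 starts each for RUNX2 and RUNX3, and the upstream start of each gene, from 250 bases before it to 50 after, holds the RUNX core motif ACCACA in tandem. Each sequence reads 5′ to 3′ along its gene, with the motif, as ACCACA or its reverse complement TGTGGT, in capitals. RUNX3 is on the minus strand at chr1:24964961-24965260 and RUNX2 on the plus strand at chr6:45328080-45328379.
RUNX3: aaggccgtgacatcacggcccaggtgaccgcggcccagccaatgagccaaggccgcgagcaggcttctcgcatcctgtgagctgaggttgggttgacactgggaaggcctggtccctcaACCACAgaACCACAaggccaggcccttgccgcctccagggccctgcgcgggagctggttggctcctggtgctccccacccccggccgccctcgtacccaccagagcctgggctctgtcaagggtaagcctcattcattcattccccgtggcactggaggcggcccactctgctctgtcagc
RUNX2: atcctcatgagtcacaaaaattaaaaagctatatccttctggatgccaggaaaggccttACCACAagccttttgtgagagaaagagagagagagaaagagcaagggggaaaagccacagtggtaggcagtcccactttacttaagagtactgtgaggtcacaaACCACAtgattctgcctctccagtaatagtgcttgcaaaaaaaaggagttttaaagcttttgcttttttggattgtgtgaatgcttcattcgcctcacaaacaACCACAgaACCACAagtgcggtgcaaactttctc
Both hold the 18-base stretch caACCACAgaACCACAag, which no other of the 35116 listed promoters contains. Its 2 motifs begin at bases -131 and -123 from the RUNX3 start and at bases 17 and 25 of the RUNX2 transcript. RUNX2 has 2 further copies, at -191 and -87. The motif, searched on both strands as ACCACA or TGTGGT with overlaps counted, occurs in 13.1% of all listed promoters, at least 2 copies in 1.31% and at least 4 in 0.0142% (5 promoters). The tandem, 14 bases with GA between the copies, occurs on either strand in 3 promoters, those of RUNX3, RUNX2 and the olfactory receptor gene OR52N2. The downstream starts of RUNX2 and RUNX3 hold neither form of the motif in this window. Nor does the 1 listed start each of RUNX1, CBFA2T2 and CBFA2T3. That start lies inside the gene's span in each case, at chr21:34888650-34888949 for RUNX1. Any start farther upstream in these genes was not searched, so they cannot be said to lack the motif. CBFB and RUNX1T1 were not matched in the promoter table. The deposited values are per gene, so they do not separate the starts. A match of letters is a description of the window and not evidence of binding.

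CBFB (ENSG00000067955, chromosome 16, 67029116 to 67101058) stood at 2972, 3584 and 2753 in IL-10 replicates 1 to 3, against 2959, 3732 and 2783 in control replicates 1 to 3. The replicate 2 libraries of both groups were high, and same-numbered libraries were close to each other. The log2 ratios within pairs 1, 2 and 3 were 0.01, -0.06 and -0.02. The means were 3103 ± 430.3 and 3158 ± 505 (SD, n = 3 each), a log2 fold change of -0.02 (95% interval -0.43 to 0.39, adjusted p = 0.992 in limma). The log2 fold change was -0.13 without IL-10 replicate 2 and 0.10 without control replicate 2. In replicates 1 and 3 with the block the value was 0.00 (95% interval -0.10 to 0.09).

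Most of the liver cell markers listed were high in the replicate 2 libraries, as were CBFB and RUNX2. Of 11 such markers, 10 were higher in both replicate 2 libraries than in the other 4, and TTR and FGB were below 5 in every library. The sum over the 11 was 1335, 1729 and 1693 with IL-10 and 1334, 2047 and 1474 in control. Without SERPINA1, which was 879 or more in each library, the sums were 20.3, 571 and 28.5 with IL-10 and 34.5, 1167 and 39.1 in control. ALB, APOB, TF and APOA2 were listed at 0 in some of the other libraries. The part of the liver cell markers in the CBFB and RUNX2 values was not tested.

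Of 8 airway epithelial markers, 4 differed between the groups without overlap and 4 overlapped, while 5.87% of all genes tested had groups that did not overlap. SCGB3A1 stood at 23.5 to 24.7 with IL-10 and 57.8 to 75.6 in control, and BPIFA1 at 14.1 to 22.8 and 40.1 to 42.7. SLPI stood at 21.8 to 25.7 with IL-10 and 38.2 to 55.2 in control, and WFDC2 at 11.8 to 16.5 and 24.0 to 28.8. These 4 were named after their values were seen, and the list was chosen with earlier results of these data known, so the count is a description only. EPCAM, KRT19, MUC5B and SCGB1A1 overlapped, and none of the 8 was below 5 in every library. The summed level of the list was 1630 to 2056 with IL-10 and 1950.1 to 2142 in control, most of it EPCAM. Their part in the values of the 7 genes was not tested.

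RUNX1T1 (ENSG00000079102, chromosome 8, 91954967 to 92103286), whose product is also called ETO, stood at 3835, 3071 and 3874 in IL-10 replicates 1 to 3, against 3878, 3649.5 and 3839.9 in control replicates 1 to 3. IL-10 replicate 2 was the lowest of the 6 libraries and control replicate 2 the next lowest. The other 5 libraries varied little, with an SD of 0.04 on the log2 scale. The log2 fold change was -0.08 (SE 0.16, 95% interval -0.44 to 0.28), or a fold of 0.943 with an interval of 0.735 to 1.21. Without IL-10 replicate 2 it was 0.03, and in replicates 1 and 3 with the block 0.00 (95% interval -0.09 to 0.09).

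CBFA2T2 (ENSG00000078699, chromosome 20, 33490075 to 33650036), an ETO paralogue expressed in many tissues, stood at 725, 849 and 846 in IL-10 replicates 1 to 3, against 758, 683 and 867 in control replicates 1 to 3. All 3 IL-10 libraries lay inside the control range. The log2 fold change was 0.07 (95% interval -0.31 to 0.45), and the ratios in pairs 1, 2 and 3 were -0.07, 0.31 and -0.04. The log2 fold change was 0.03 without IL-10 replicate 2, and its sign turned without control replicate 2, to -0.01.

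CBFA2T3 (ENSG00000129993, chromosome 16, 88874858 to 88977204), the ETO paralogue that works with TAL1 in blood progenitors, stood at 281, 688 and 246 in IL-10 replicates 1 to 3, against 328, 354 and 272 in control replicates 1 to 3. IL-10 replicate 2 was the highest library, and the IL-10 libraries of pairs 1 and 3 were below their controls. The means were 405 ± 245 and 318 ± 41.8 (SD, n = 3 each). The log2 fold change in limma, a difference of mean log2 values, was 0.20 (SE 0.36, 95% interval -0.61 to 1.01). That was the widest interval of the 7 genes, and a 2-fold rise lies just inside it. On recovered reads the value was 0.34 in edgeR and 0.35 in DESeq2. Without IL-10 replicate 2 the limma value was -0.26, and in replicates 1 and 3 with the block -0.18 (95% interval -0.39 to 0.02, adjusted p = 0.999 in limma).

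**Figure D2:**
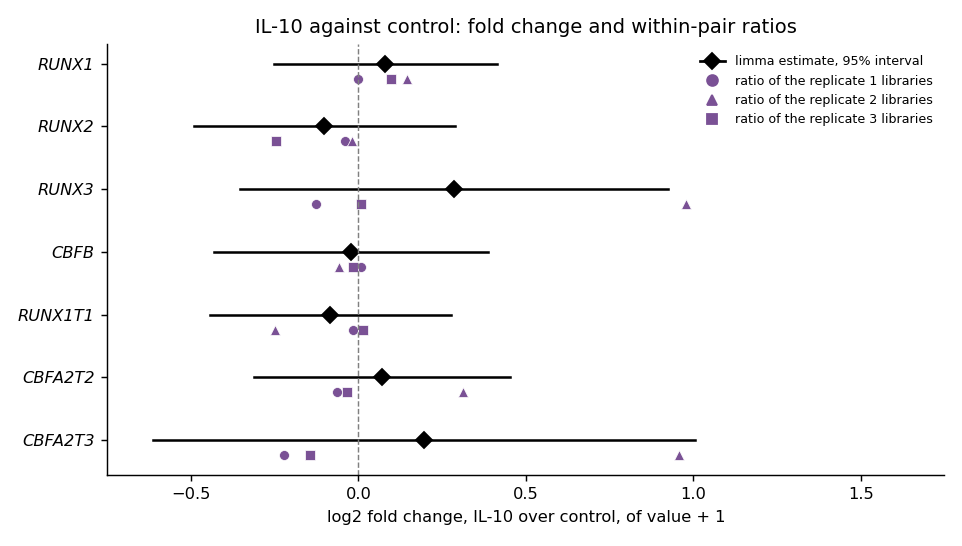
Log2 fold change of IL-10 over control for the 7 genes, on the log2(value + 1) scale. Diamonds and lines are the limma estimate and its 95% interval, and the smaller markers are the ratios of same-numbered libraries. All 7 intervals include 0, and RUNX3 and CBFA2T3 have pair 2 ratios of 0.98 and 0.96 with pair 1 and 3 ratios of -0.22 to 0.01.

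GENCODE 29 lists 16 genes whose spans overlap those of members, of which 8 were measured. The submitters' use of strand is not given in the sources used here. The antisense gene AF181450.1 shares 66 exon bases with RUNX1T1 and stood at 2.35 to 15.0 with IL-10 and 9.79 to 14.9 in control. AC092384.2, antisense to CBFA2T3 with 501 shared exon bases, stood at 3.53 to 6.41 with IL-10 and 4.66 to 7.12 in control. The other 6 share no exon base with their member. Among them SUPT3H, which lies opposite RUNX2, stood at 127 to 176 with IL-10 and 134 to 178 in control.

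Across genes, the high and low values of IL-10 replicate 2 ran with GC content, with CBFB as an exception among the members. Relative to the mean of the other 5 libraries on the log2 scale, IL-10 replicate 2 stood at 1.22 for CBFA2T3 (60.7% GC) and 0.99 for RUNX3 (57.2%). It stood at -0.31 for RUNX1T1 (42.8%). The median of the genes in the same GC decile was 0.72 for CBFA2T3, 0.59 for RUNX3 and -0.34 for RUNX1T1. RUNX1, RUNX2 and CBFA2T2, at 46.2% to 50.2% GC, stood at 0.08, 0.19 and 0.13, where the medians were 0.08, 0.08 and 0.23. CBFB did not follow the trend: it stood at 0.25 with 40.6% GC, above the 90th percentile of its decile (0.01), whose median was -0.50. Across 11576 genes, which are not independent, deviation and GC content had a Spearman rho of 0.762. Over the members alone the rho was 0.536.

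After correction for GC content in each library, RUNX1T1 was nearly level, at 3664, 3679 and 3703 in IL-10 replicates 1 to 3, against 3746, 3589 and 3689.8 in control replicates 1 to 3. RUNX3 then stood at 433, 677 and 540.4 with IL-10 and 466, 477 and 539.9 in control. CBFA2T3 stood at 308, 476 and 272 with IL-10 and 351, 364 and 299.7 in control. IL-10 replicate 2 was still the highest library for both. The corrected log2 fold changes were 0.00 for RUNX1T1, 0.13 for RUNX3 and 0.02 for CBFA2T3, with an adjusted p of 1.00 in limma. The CBFB value of IL-10 replicate 2 was 4688 after correction, farther from the other libraries than before it. Whether GC content accounts for these values was not tested.

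**Figure D3:**
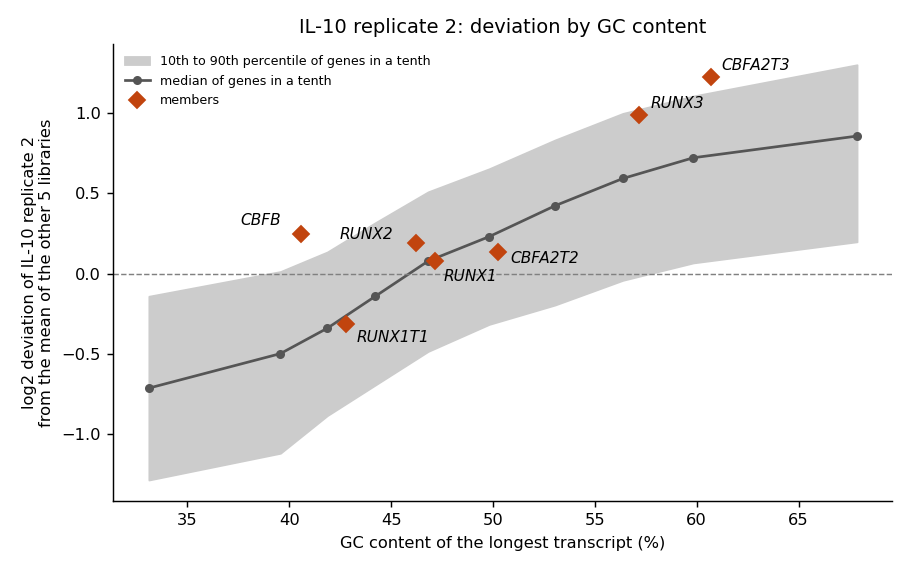
Deviation of IL-10 replicate 2 from the mean of the other 5 libraries (log2) against the GC content of each gene's longest transcript. The line and band are the median and the 10th to 90th percentile of each GC decile, for genes averaging 50 or more, and diamonds are the 7 members. CBFA2T3 (1.22) and CBFB (0.25) lie above the band, and the other 5 within it.

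For levels of different genes, values were divided by length, in normalised read counts per kb of exon, with all annotated exons of a gene merged. CBFB and RUNX1 were highest and close to each other, at 752 ± 104 and 755 ± 30.3 per kb with IL-10 and 765 ± 122 and 714 ± 16.2 in control (SD, n = 3 each). Without IL-10 replicate 2 the IL-10 means were 693 for CBFB and 748 for RUNX1. CBFB was above RUNX1 only in the replicate 2 libraries, at 868 against 769 with IL-10 and 904 against 696 in control. RUNX1T1 followed at 265 ± 33.4 with IL-10 and 280.0 ± 9.05 in control. RUNX3 had 134 ± 59.7 with IL-10 (100.1 without replicate 2) and 103 ± 6.22 in control. RUNX2 had 85.7 ± 11.2 with IL-10 and 91.8 ± 8.79 in control, and CBFA2T2 85.3 ± 7.50 and 81.4 ± 9.80. CBFA2T3 had the lowest means, 67.8 ± 41.1 with IL-10 (44.1 without replicate 2) and 53.3 ± 6.99 in control, but in IL-10 replicate 2 it stood at 115, above RUNX2 (98.6) and CBFA2T2 (89.7). RUNX2 and CBFA2T2 overlapped within both groups, and CBFB and RUNX1 could not be ordered by their spread. By the longest transcript in place of merged exons, RUNX1 was above CBFB, at 1617 against 989.5 per kb with IL-10 and 1529 against 1007 in control. On that scale RUNX3 was above RUNX2 with IL-10, at 139.7 against 119, but below it without IL-10 replicate 2, at 104 against 110.5, and below it in control, at 108 against 128. Among 13905 protein-coding genes tested, RUNX1 stood at the 90.3rd percentile per kb, CBFB at the 90.7th, RUNX1T1 at the 73.4th and the other 4 at the 41.1st to 54.1st.

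RUNX1 made up most of the RUNX transcripts, and RUNX1T1 most of the ETO transcripts. Per kb, RUNX1 held 80.9%, 71.9% and 80.4% of the RUNX total in IL-10 replicates 1 to 3, against 80.0%, 77.5% and 78.1% in control replicates 1 to 3. RUNX1T1 held 69.6%, 52.6% and 68.7% of the ETO total with IL-10, against 68.0%, 67.2% and 67.4% in control. In both families IL-10 replicate 2 had the lowest share of the leading gene. CBFA2T3 held 26.7% of the ETO total in that library and 9.88% to 14.8% in the other 5. By the longest transcript, RUNX1 held 86.3% ± 3.25 with IL-10 and 86.6% ± 0.953 in control (SD, n = 3 each).

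**Figure D4:**
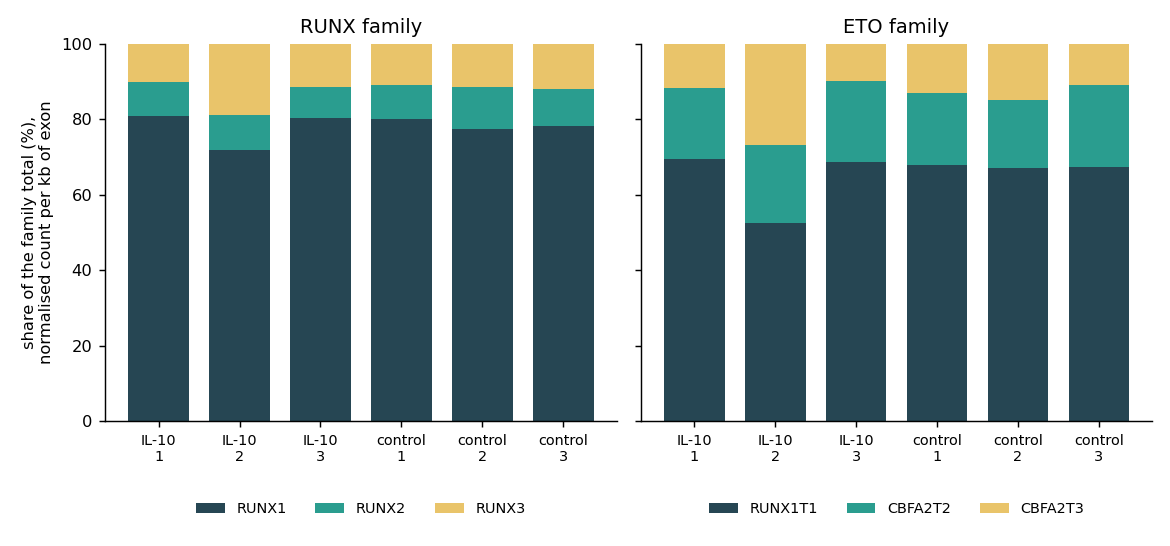
Share of each gene in its family total, in percent of normalised read counts per kb of merged exon, by library. RUNX1 held 71.9% to 80.9% of the RUNX total and RUNX1T1 52.6% to 69.6% of the ETO total, with the lowest share of both in IL-10 replicate 2.

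The ratio of RUNX1T1 to RUNX1, the fusion's partner genes, was close to constant in control. As a ratio of normalised read counts within each library, not divided by length, it was 0.342, 0.256 and 0.321 in IL-10 replicates 1 to 3, against 0.345, 0.337 and 0.3398 in control replicates 1 to 3. Each IL-10 library but replicate 1 lay below the control range, and replicate 1 lay within it. The IL-10 library had the lower ratio in all 3 pairs. The mean log2 ratio was -1.72 ± 0.22 with IL-10 and -1.55 ± 0.02 in control (SD, n = 3 each), a difference of -0.16 (two-sided exact permutation p = 0.3, adjusted p = 0.6 over 2 ratios). With 3 libraries against 3, the smallest p that this test can give is 0.1. With the pairs kept, the exact sign-flip p was 0.25, the smallest that 3 pairs can give. With replicates 1 and 3 only the difference was -0.05, and after GC correction -0.06.

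The ratio of CBFB to the summed RUNX genes, per kb, was 0.809, 0.812 and 0.691 in IL-10 replicates 1 to 3, against 0.795, 1.01 and 0.726 in control replicates 1 to 3. Control replicate 2 was the highest library, and the other 5 overlapped. The log2 difference was -0.12 (two-sided exact permutation p = 0.6, adjusted p = 0.6). It turned to 0.02 without control replicate 2 and to 0.06 after GC correction. By the longest transcript the ratio was 0.527 ± 0.0554 with IL-10 and 0.572 ± 0.101 in control (SD, n = 3 each).

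In each of the 4 lists of genes that work with the RUNX and ETO proteins, the median log2 ratio was higher in pair 2 than in pairs 1 and 3, though single genes differed. The pair 2 median of all genes is not given, so whether this is particular to the lists cannot be said. Over all genes, IL-10 replicate 2 had a median log2 deviation of 0.59 to 0.86 in GC deciles 8 to 10. In GC deciles 1 to 4 the median was -0.71 to -0.14. Whether the lists follow that shift was not tested. Of 14 partner transcription factors, 13 were tested, with 10 positive and 3 negative log2 fold changes and 0 past the threshold. Their median was 0.15, against 0.02 for all genes tested, and -0.02, 0.41 and 0.01 in pairs 1, 2 and 3. LYL1, a helix-loop-helix factor of the fusion's complex, stood at 9653, 25537 and 9013 in IL-10 replicates 1 to 3, against 9807, 13320.3 and 10182 in control replicates 1 to 3. TCF3, the E protein also called E2A, stood at 6683, 16579 and 6596 with IL-10, against 7102, 9557 and 6803 in control. Both were highest in IL-10 replicate 2, and without it their log2 fold changes were -0.24 and -0.22.

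Of 15 corepressors of the ETO and RUNX proteins, 14 were tested, with 11 positive and 3 negative values, a median of 0.16 and 0 past the threshold. The median was 0.02, 0.34 and -0.01 in pairs 1, 2 and 3. TBL1XR1, a subunit of histone deacetylase complexes, stood at 14073, 7092 and 17056 in IL-10 replicates 1 to 3, against 14227, 12179.7 and 17335.5 in control replicates 1 to 3. IL-10 replicate 2 was the lowest library for TBL1XR1, whose GC content was 34.5%. The groups did not overlap for 1 of the 14, SIN3A, a scaffold of histone deacetylase complexes, which was named after its values were seen, against 5.87% of all genes. It stood at 2886, 2853 and 2887 with IL-10 and 2851, 2695 and 2732 in control, a log2 fold change of 0.06 (adjusted p = 0.982 in limma).

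All 16 modifiers of the RUNX proteins were tested, with 9 positive and 7 negative values, a median of 0.04 and 0 past the threshold. PRMT1, an arginine methyltransferase that modifies RUNX1, stood at 10446, 21238 and 9340.2 in IL-10 replicates 1 to 3, against 10379, 12989 and 9723 in control replicates 1 to 3. CDK6, a cell-cycle kinase that binds RUNX1, stood at 10773, 6948 and 11486 with IL-10, against 11136, 11159.5 and 11529 in control. The library that stood apart was again IL-10 replicate 2, high for PRMT1 and low for CDK6.

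Of 20 target genes of RUNX1 and the fusion, 18 were measured and tested, with 13 positive and 5 negative values, a median of 0.12 and 0 past the threshold. The median was -0.05, 0.68 and -0.01 in pairs 1, 2 and 3. MPO, the myeloperoxidase gene, stood at 139394, 160649 and 67839 in IL-10 replicates 1 to 3, against 151854, 89131.5 and 66945 in control replicates 1 to 3. JUP, which encodes plakoglobin and is raised by the fusion, stood at 5807, 10665 and 6366 with IL-10, against 6011, 5569 and 6601 in control. MPO was lowest in the replicate 3 libraries of both groups, and JUP was highest in IL-10 replicate 2. The groups did not overlap for 1 of the 18, against 5.87% of all genes. It was TRH, a hormone precursor gene named after its values were seen, at 4.28, 5.88 and 4.75 with IL-10 and 6.52, 5.97 and 11.6 in control (adjusted p = 0.982 in limma).

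By Pearson's r on log2(value + 1) over the 6 libraries, and among 11604 other genes averaging 50 or more, the genes most like RUNX1T1 were HOOK3, FIGNL1 and ENPP4, each with r of at least 0.999. HOOK3 stood at 1449, 851 and 1472 in IL-10 replicates 1 to 3, against 1497, 1276 and 1463 in control replicates 1 to 3. All 3 were low in IL-10 replicate 2 and had a GC content of 34.4% to 38.8%. The genes most like RUNX1 were SHFL (r = 0.987), CIITA (0.9803) and C3orf62 (0.9799). CIITA stood at 119, 152 and 158 with IL-10, against 112, 101 and 127 in control. These values share library and depth and are given as a description.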

How the data were processed

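Per the labels' protocols, Trizol RNA from 6 samples, 3 per group, went into Illumina TruSeq libraries. The authors deposited 1 table, named as FPKM, whose values are a normalised signal: in each library 100% are whole multiples of 1 step within 0.01 read, which recovers read counts. The step of control replicate 2 (0.994) lies close to 1. Builds GRCh38 and hg38 and the tool edgeR 3.18.1 come from the submitters' processing notes, which give them no role. For the aligner, the counter and strand handling, nothing is stated: not given in the sources used here. Of the identifiers, 26883 matched the gene name table and 27052 GENCODE 29 (GRCh38), which gave coordinates, exon lengths and GC content.

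Values were tested as log2(value + 1) in limma 3.58.1 under R 4.3.3 with trended variance, two-sided, for the 21946 genes that reached 1 in 3 or more libraries, with Benjamini-Hochberg adjustment over all of them and a threshold of 0.05. Fold changes on this scale are differences of mean log2 values and can differ from the ratio of means. They understate those of low genes. Each gene's variance is drawn by limma toward a trend over all genes, so intervals can be wider or narrower than its own replicates give. As alternatives, DESeq2 1.42.0 and the quasi-likelihood test of edgeR 4.0.16 were run on the recovered reads. Ratios were tested by exact permutation (scipy 1.17.1). GC correction subtracted a lowess curve of each library's deviation on GC content.

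Same-numbered libraries deviated from their group means together, with correlations of 0.367, 0.605 and 0.726 over 11605 genes, so equal numbers were read as pairs. Between replicates 1 and 3 of different groups the correlations were 0.176 and 0.208, so pairs 1 and 3 are less clearly told apart. The other correlations between different numbers were negative. Intervals and p-values are from fits without the pairs, and the fit with the replicate block was an alternative. This pairing rests on the data, as the labels carry a shared number and nothing more. Whether replicates were separate cultures is not in the labels, so p-values cover only the spread among these samples, possibly technical.

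The members and lists were chosen with earlier results of these data known. Genes named are the members, the 2 of highest mean in each list (1 of them is not reported here), genes overlapping a member, and the 3 most like RUNX1 and RUNX1T1. Outside that rule, SIN3A, TRH, OR52N2 and the cell type markers named were chosen after their values or matches were seen. Alternatives were another pseudocount, other filters and scalings, sample weights, the replicate block, GC correction, count tests and leaving out each library.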

Additional observations from a re-analysis of the deposited data

How the results depend on the processing

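Of the 7 members, 0 passed the threshold in limma, edgeR or DESeq2 under any of 18 alternatives, which included the replicate block and the loss of any 1 library. The count of genes past it was 0 in all but replicates 1 and 3 only with the replicate block, where it was 11, a fit without both replicate 2 libraries. The replicate block on all libraries changed no call. The main fit had 0 genes past the threshold, so there was no such result that could reverse. Sign changes, 34 of 252 for single genes, were all among values that passed in neither fit. RUNX2 and CDK6 kept a negative sign throughout. Signs turned as follows, on the log2 scale, and the cause was not tested.

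Equal library totals gave -0.021 for RUNX1 and -0.031 for CBFA2T2, and moved the median of all genes to -0.08, against 0.02. Quantile normalization gave -0.052 for RUNX1. Sample weights gave -0.090 for RUNX3, -0.045 for CBFA2T2, -0.18 for CBFA2T3, -0.062 for LYL1, -0.094 for TCF3, -0.0087 for PRMT1 and -0.020 for JUP. GC correction gave 0.12 for CBFB, 0.0031 for RUNX1T1 and 0.057 for the CBFB to RUNX ratio, and with the replicate block 0.12 and 0.0031. Replicates 1 and 3 only with the block gave -0.060 for RUNX3, -0.051 for CBFA2T2, -0.18 for CBFA2T3, -0.099 for LYL1, -0.066 for TCF3, -0.024 for PRMT1, -0.052 for MPO and -0.051 for JUP.

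Leaving out 1 library gave ranges of -0.054 to 0.53 for RUNX3, -0.13 to 0.10 for CBFB, -0.14 to 0.025 for RUNX1T1, -0.012 to 0.16 for CBFA2T2, -0.26 to 0.47 for CBFA2T3, -0.24 to 0.51 for LYL1, -0.22 to 0.45 for TCF3, -0.53 to 0.10 for TBL1XR1, -0.15 to 0.44 for PRMT1 and -0.017 to 0.63 for MPO. The RUNX1T1 to RUNX1 ratio ranged from -0.25 to -0.04 and the CBFB to RUNX ratio from -0.22 to 0.017. For the 7 genes the residual SD was 2.96 to 8.10 times the counting SD.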
